A study of Mus musculus with 10 samples.

Results

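Src, Apbb1, Agrn, Daam1, Robo1 and Robo2 are 6 genes that are often used as textbook cases of neuronal microexons, exons so short that they add only a few amino acids to a protein. They were chosen by gene symbol, and every splicing event listed under those symbols was read. In the table of N2A cells they hold 532 of 661162 events, and 10 of its 3652 cassette exons of 3 to 27 nt, the size range taken here as microexons. They have 5 entries in a deposited list of neural microexons and 9 of the 2121 entries of 3 to 27 nt in a deposited comparison of neurons.

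N2A is a mouse neuroblastoma cell line. It was transfected at 40 nM with siRNAs that target Qk (siQk, n = 3) or, as the control, with non-targeting siRNAs (siNT, n = 3). Wells were seeded with 100000 cells and RNA was taken at 72 h. Glutamatergic neurons differentiated in vitro from mouse embryonic stem cells were harvested at day 7 in culture without drug (n = 2) or after 12 h in 100 uM cycloheximide (n = 2), which blocks translation and with it nonsense-mediated decay. No gene deletion or transgene is named in the labels for any group, N2A is a single line grown without differentiation, and the neurons are a culture product, not brain tissue.

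The first experiment asks which exons depend on Quaking (Qk), an RNA-binding protein that acts in splicing, and the second which microexon isoforms differ when translation is blocked. In siNT the summed reads of the exon events of Qk (its junction coverage) were 90.8, 82.9 and 82.5 CPM, where CPM is the gene's reads scaled to the sample total of exon-event reads. In siQk they were 8.18, 12.3 and 13.0 CPM, all below every control (log2 fold change -2.91, limma adjusted p = 0.000483). The N2A samples held between 26595944 and 80481173 such reads. Of 9 neuroblastoma and neuronal markers found among the genes, 8 reached 1 CPM on average, and only Dcx did not. Their summed coverage was 2662 to 2702 CPM in siNT and 2729 to 2818 CPM in siQk, and 1 of them passed the coverage test. None of the astrocyte, microglia or muscle markers reached 1 CPM. Pecam1 and Pdgfra, of the fibroblast and endothelial markers, reached 1 CPM, and that list summed to 7.70 to 10.3 CPM in siNT and 13.0 to 15.6 CPM in siQk. None of that list passed the coverage test. Most of its sum was Pecam1, at 5.45, 8.05 and 8.91 CPM in siNT and 9.27, 12.7 and 13.3 CPM in siQk. Pdgfra was also higher in each siQk sample, at 0.78, 0.84 and 0.56 CPM in siNT and 1.81, 1.81 and 1.02 CPM in siQk. Col1a1, Col1a2 and Cdh5 overlapped between the groups. Of the oligodendrocyte markers, Mbp reached 1 CPM, whereas Mog, Mag and Sox10 had no reads. The part of these marker levels in the results was not tested. The neuron files hold no gene levels, so the identity of the neurons was not checked against markers.

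Neuronal microexons are spliced in mainly in neurons, where the splicing factors Srrm4 and Srrm3 activate many of them and Ptbp1 holds many back in other cells. Most keep the reading frame, so they change a surface of the protein without removing the rest of it. In Src, a tyrosine kinase, the microexon lies in the SH3 domain and gives the neuronal form N1-Src. In Apbb1 (Fe65), an adaptor that binds the tail of the amyloid precursor protein App, it lies in a phosphotyrosine-binding domain. Agrn encodes agrin, a matrix proteoglycan: its 12 nt exon (the y site) adds a heparin-binding stretch, and its 24 nt exon (part of the z site) gives the neural form that clusters acetylcholine receptors through Lrp4 and MuSK. Daam1 is a formin that builds actin filaments, and its microexon lies in the FH2 domain. Robo1 and Robo2 are the receptors of the Slit guidance cues, and the 12 nt exon of Robo2 lies in the extracellular part of the receptor.

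The microexons whose values are described below are shown with 15 exonic bases on either side as they stand in the spliced transcript, to give their length and frame. The sequences are from GENCODE M21 transcripts on mm10, written 5′ to 3′ on the strand of the gene, with the microexon in capitals. All 7 are annotated as coding exons and all have a length that is a multiple of 3. The Agrn 24 nt exon (chr4:156168546-156168569, minus strand) is exon 34 of Agrn-203, and the Agrn 12 nt exon (chr4:156169546-156169557, minus strand) is exon 30 of it. The Apbb1 exon (chr7:105565946-105565951, minus strand) is exon 8 of Apbb1-209, the Daam1 exon (chr12:71958747-71958773, plus strand) is exon 16 of Daam1-201, and the Src exon (chr2:157458843-157458860, plus strand) is exon 6 of Src-202. The Robo1 exon (chr16:72993667-72993693, plus strand) is exon 18 of Robo1-201 and the Robo2 exon (chr16:74008775-74008786, minus strand) is exon 7 of its transcript.
Src, 18 nt: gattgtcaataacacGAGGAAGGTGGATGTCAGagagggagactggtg
Apbb1, 6 nt: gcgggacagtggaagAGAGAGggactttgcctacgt
Agrn, 12 nt: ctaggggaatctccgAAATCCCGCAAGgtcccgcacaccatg
Agrn, 24 nt: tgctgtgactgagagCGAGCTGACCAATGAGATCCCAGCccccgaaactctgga
Daam1, 27 nt: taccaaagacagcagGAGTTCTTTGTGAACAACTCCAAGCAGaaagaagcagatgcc
Robo1, 27 nt: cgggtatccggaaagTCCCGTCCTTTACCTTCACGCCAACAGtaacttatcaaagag
Robo2, 12 nt: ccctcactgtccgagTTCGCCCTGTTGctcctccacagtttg

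The other 3 microexons of these genes in the N2A table have no GENCODE M21 exon with the same ends and are shown by position only. They are a 26 nt event of Agrn (chr4:156196540-156196565), a 9 nt event of Robo1 (chr16:72956275-72956283) and another 12 nt event of Robo2 (chr16:73985933-73985944). The N2A table gives the Apbb1 microexon as 4 nt (chr7:105565946-105565949), whereas GENCODE and the neuron table have 6 nt, with the start in common. The neuron table also holds a 13 nt Apbb1 entry (chr7:105568619-105568631), which GENCODE has outside the coding sequence.

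In control N2A cells the microexons of these genes ran from almost fully included to almost fully skipped. The deposited measure is percent spliced in (PSI), the share of transcripts that carry the exon. By mean PSI in siNT (± SD, n = 3) the order was Apbb1 (95.4% ± 0.35), Daam1 (71.7% ± 3.22), the 12 nt exon of Agrn (51.9% ± 5.62), Src (21.9% ± 3.92), the 24 nt exon of Agrn (1.04% ± 0.43) and its 26 nt event (0.19% ± 0.20). The ranges of neighbours in that order did not overlap among the 3 controls. In siQk the 12 nt Agrn exon overlapped with both neighbours, Daam1 and Src.

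**Figure D1:**
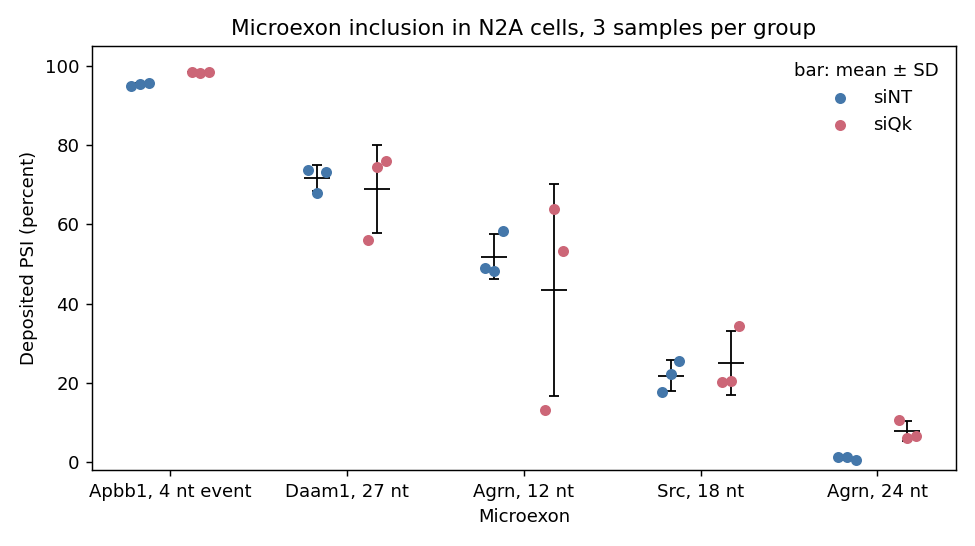
Deposited PSI in percent (y axis) of the 5 tested microexons (x axis) in each N2A sample, with siNT in blue, siQk in red and black bars for the mean ± SD of 3 samples. The 24 nt exon of Agrn lay between 0.54% and 1.31% in siNT and between 6.11% and 10.7% in siQk, and the 12 nt exon of Agrn spread from 13.1% to 63.9% within siQk.

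The part of that order held by the 12 nt Agrn exon rests on the correction in the deposited values. In siNT sample 1, 20 reads joined the exon on its upstream side, 9 on its downstream side and 236 skipped it, which is 5.79% inclusion from reads as counted, yet the deposited PSI was 49.1%. Over the 3 siNT samples the reads as counted gave 8.14% ± 2.06 (SD, n = 3) for this exon. The same calculation gave 8.13% ± 1.70 for Src, 59.9% ± 3.77 for Daam1, 0.51% ± 0.21 for the 24 nt exon of Agrn and 94.5% ± 0.42 for Apbb1 (SD, n = 3 each). Deposited values thus exceeded the counted ones for all 5 exons, and as counted the 12 nt Agrn exon and Src overlapped.

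**Figure D2:**
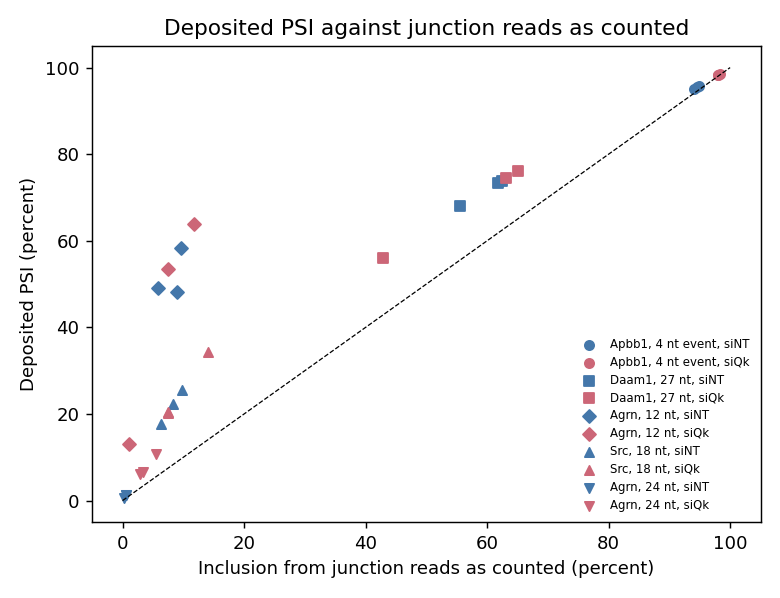
Deposited PSI (y axis, percent) against inclusion from junction reads as counted (x axis, percent) for the 5 tested microexons, 1 point per N2A sample with siNT in blue and siQk in red. The dashed line marks equal values, and the 12 nt exon of Agrn stands farthest above it, at 49.1% deposited against 5.79% counted in siNT sample 1.

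In the Qk knockdown none of the 5 microexons that could be tested met the rule for a change, which was a limma adjusted p under 0.05 and a difference of at least 10 percentage points in mean PSI. The same rule called 7.32% of the 410 microexons tested. Two-sided p-values came from log2 ratios of inclusion to exclusion reads and were adjusted over all cassette exons. By the adjusted p alone 2 of the 5 passed, the 24 nt exon of Agrn and the Apbb1 microexon, both higher in siQk, beside 7.80% of all tested microexons in that direction and 9.02% in either. These were also the only 2 of the 5 whose groups did not overlap, which held for 37.3% of the 410, and for 31.7% in the higher direction. The median difference over the 5 was 3.03 points, beside 2.40 points over the 410. Both exons passed the filter, a mean PSI from 2 to 98 over the 6 samples, through 1 group: the siNT mean of the Agrn exon (1.04%) and the siQk mean of Apbb1 (98.4%) lay outside it. Nothing is read from these counts for that reason.

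The 24 nt exon of Agrn, the z-site exon of neural agrin, was close to silent in control cells. Its PSI was 1.27%, 1.31% and 0.54% in siNT and 10.7%, 6.11% and 6.68% in siQk. Every knockdown sample was above every control, and the exon stayed a minor form in all 6. The mean was 1.04% in siNT and 7.83% in siQk, 6.79 points higher, with a log2 change of the inclusion ratio of 2.97 (SE 0.47, 95% interval 1.93 to 4.005, limma adjusted p = 0.00965). Behind it stand 3 upstream and 4 downstream junction reads against 561 skipping reads in siNT sample 1, 3 and 2 against 388 in sample 2, and 4 and 0 against 752 in sample 3. In siQk the upstream and downstream reads were 17 and 11 against 240 in sample 1, 7 and 11 against 302 in sample 2, and 32 and 24 against 805 in sample 3. Relative to skipping reads, junction reads joining the exon were more frequent in each knockdown sample. From reads as counted the means were 0.51% and 3.92%, 3.41 points apart. Leaving out any single sample moved the adjusted p to between 0.0244 and 0.0469. The exon entered the test only through siQk, because its siNT mean of 1.04% lay under the 2% limit. These p-values are therefore not read as support for a change.

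The z site of agrin can also hold a 33 nt exon (chr4:156167777-156167809), and it stayed near 0. Its PSI was 0.60%, 0.18% and 0.17% in siNT and 1.57%, 1.51% and 0.48% in siQk, with overlapping groups. Its mean of 0.32% in siNT and 1.19% in siQk lay under the 2% limit for testing. The 26 nt event of Agrn read 0.00%, 0.17% and 0.39% in siNT and 0.26%, 0.00% and 0.36% in siQk, likewise too low to test.

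The 12 nt y-site exon of Agrn was highly variable in the knockdown. Its PSI was 49.1%, 48.2% and 58.3% in siNT and 13.1%, 63.9% and 53.4% in siQk. siQk sample 1 lay far below all 5 other samples, whereas siQk sample 2 was the highest of all. The mean difference was -8.41 points (log2 ratio -0.67, 95% interval -2.28 to 0.93, limma adjusted p = 0.849), and without siQk sample 1 it became 6.78 points higher in siQk. From reads as counted it was -1.36 points. In siQk sample 1 only 3 upstream and 1 downstream junction reads joined the exon, against 186 that skipped it.

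The Apbb1 microexon was included in nearly all N2A transcripts, and its small difference passed the adjusted p but not the 10 points. Its PSI was 94.99%, 95.4% and 95.7% in siNT and 98.6%, 98.3% and 98.4% in siQk. The groups did not overlap, and the 3 samples of each lay within 1 point. The mean was 3.03 points higher in siQk, a log2 change of the inclusion ratio of 1.53 (SE 0.28, 95% interval 0.90 to 2.16, limma adjusted p = 0.0263). This microexon entered the test only through siNT, because its siQk mean of 98.4% lay above the 98% limit. Its p-values are therefore not read as support for a change. Skipping reads numbered 80 beside 1258 inclusion reads, 38 beside 654 and 76 beside 1399 in siNT, and 10 beside 565, 10 beside 472 and 29 beside 1449 in siQk. The adjusted p rose above 0.05 when siNT sample 1, 2 or 3 or siQk sample 2 or 3 was left out (0.142 at most), without the filter on mean PSI (0.0866) and with limma on PSI (0.0578).

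The same skipping can be read from the exon before the microexon, whose reads partly overlap with those above. Reads that joined that exon directly to the exon after the microexon numbered 51, 26 and 47 in siNT, beside 704, 404 and 850 reads entering it. In siQk they numbered 5, 6 and 16, beside 319, 272 and 726. As a share this was 7.24%, 6.44% and 5.53% in siNT and 1.57%, 2.21% and 2.20% in siQk, without overlap.

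By deposited PSI the Daam1 microexon was the major form in all samples, and it did not pass the test. From reads as counted, siQk sample 1 gave 42.9%. Its PSI was 73.8%, 68.0% and 73.3% in siNT and 56.0%, 74.5% and 76.0% in siQk. siQk sample 1 was the lowest of the 6 and the other 2 knockdown samples were the highest. The mean difference was -2.87 points (log2 ratio -0.17, 95% interval -1.16 to 0.83, limma adjusted p = 0.947), and without siQk sample 1 it was 3.52 points higher in siQk. Between 31 and 110 reads per sample stand behind these values.

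The Src microexon, which makes N1-Src, was a minor form in N2A cells. Its PSI was 17.8%, 22.3% and 25.6% in siNT and 20.3%, 20.4% and 34.4% in siQk. siQk sample 3 was the highest, and the other 2 knockdown samples lay within the control range. The mean difference was 3.14 points (log2 ratio 0.25, 95% interval -0.67 to 1.16, limma adjusted p = 0.909), which turned to -1.53 points without siQk sample 3. Between 36 and 152 reads per sample stand behind these values, and the interval includes changes in both directions.

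Robo1 and Robo2 could not be assessed in N2A cells. Their 4 microexons had no inclusion or skipping read in any of the 6 samples. Summed over all exon events, Robo1 had 4 reads in siNT sample 1 and 0 in the other 5 samples. Robo2 had 0, 2 and 2 reads in siNT and 0, 2 and 3 in siQk. A count of 0 allows up to 3 reads, or 0.0373 to 0.113 CPM depending on the sample, and that limit covers counting error only.

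**Figure D3:**
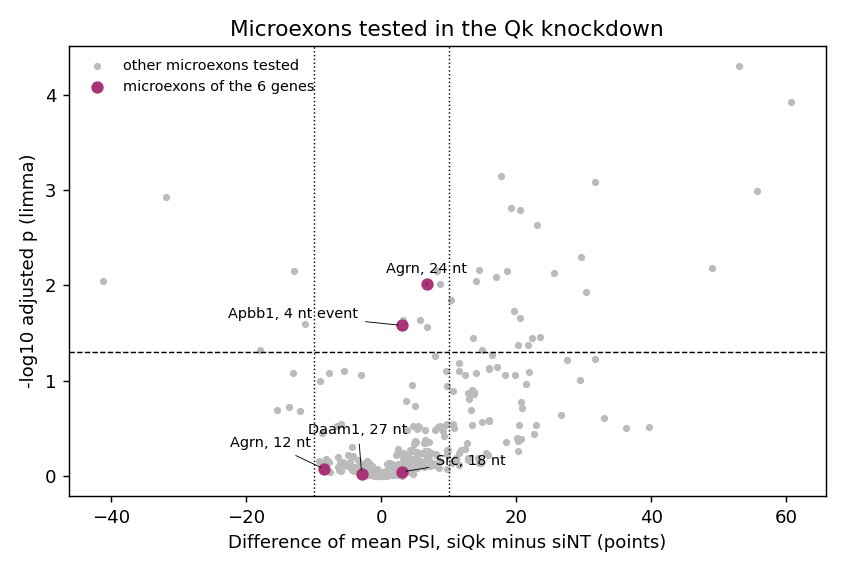
Difference of mean PSI between siQk and siNT (x axis, percentage points) against -log10 of the limma adjusted p (y axis) for the 410 microexons tested, with those of Src, Apbb1, Agrn and Daam1 in purple. The dashed line marks an adjusted p of 0.05 and the dotted lines 10 points: the 24 nt exon of Agrn (6.79 points) and Apbb1 (3.03 points) stand above the dashed line and between the dotted ones.

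By likeness of PSI over the 6 N2A samples (root mean square distance among 410 microexons), the microexons near the 24 nt Agrn exon included a 20 nt exon of Srrm3 at 2.03 points and a 9 nt exon of Eml6 at 2.58 points. The Apbb1 microexon lay nearest to exons of Zdhhc2 (0.985 points), Rundc1 (1.28 points) and Ocrl (1.34 points). Nearest to Src were exons of Mef2a (5.29 points), Bak1 (5.63 points) and Tenm3 (6.09 points), and nearest to Daam1 were exons of Faap100 (5.44 points), Myo9b (7.00 points) and Rgs12 (8.40 points). The 12 nt Agrn exon had none closer than Tmem184b, Arhgef40 and A830080D01Rik at 13.0, 13.6 and 14.2 points, and the 26 nt Agrn event lay nearest to exons of Ap2b1, Tpd52 and Leng8, at 1.96, 2.03 and 2.26 points. These distances follow the PSI level as well as its change.

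Apart from the microexons, most exons of these genes were constitutive in N2A cells. Of 100 exon events with at least 10 reads in every sample, 79 had a mean PSI above 98%, 14 below 2%, and 7 between. Agrn had 33 of its 42 above 98%, Daam1 23 of 27, Apbb1 12 of 16 and Src 11 of 15. Of the 7 between, 5 were the microexons above, so that only 2 longer cassette exons could be tested. Neither was called, against 0.974% of 12520 longer exons tested. A 40 nt exon of Apbb1 (chr7:105568619-105568658) held at 3.11%, 2.75% and 3.15% in siNT and 2.94%, 3.37% and 3.08% in siQk (limma adjusted p = 0.967). A 77 nt exon of Src (chr2:157439201-157439277) read 100%, 85.4% and 89.96% in siNT and 90.6%, 91.0% and 93.3% in siQk (limma adjusted p = 0.855).

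None of 18 introns, 1 alternative 3′ splice site and 8 alternative 5′ splice sites that were tested was called. The background was 0.113% of 17664 introns, 0.101% of 9943 alternative 3′ sites and 0.107% of 7498 alternative 5′ sites. The limma adjusted p of these tested introns and sites was 0.919 or more. The intron with the largest difference was the 403 nt interval of Apbb1 that contains the microexon (chr7:105565648-105566050), at 16.3%, 12.5% and 19.2% in siNT and 21.3%, 45.6% and 19.3% in siQk. siQk sample 2 stood apart, and without it the difference fell from 12.7 to 4.30 points. A read spliced across the whole interval also skips the microexon, so this ratio shares reads with the microexon event. In Src the largest was the 4076 nt interval around the microexon (chr2:157458634-157462709), at 2.75%, 0.00% and 0.62% in siNT and 3.23%, 6.25% and 3.61% in siQk (limma adjusted p = 0.937). Its siNT mean lay under the 2% limit, so this interval entered the test only through siQk, and nothing is read from its values. It dropped out of the test when at least 20 reads per sample were required. A read spliced across that interval likewise skips the microexon.

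In Agrn a short intron (chr4:156173681-156173784) was retained in 19.1%, 15.7% and 16.7% in siNT and 18.6%, 24.5% and 22.1% in siQk. In Daam1 the 6187 nt intron before the microexon (chr12:71952560-71958746) read 4.04%, 7.32% and 2.60% in siNT and 1.01%, 0.00% and 3.50% in siQk. The groups overlapped in both, with a limma adjusted p of 0.9999 each. The siQk mean of the Daam1 intron lay under the 2% limit, so it entered the test only through siNT. The largest difference among the splice sites was an alternative 5′ site of Daam1, at 33.9%, 61.0% and 38.6% in siNT and 46.3%, 22.7% and 34.2% in siQk, a mean difference of -10.1 points within overlapping groups (limma adjusted p = 0.937). That difference was -1.86 points without siNT sample 2, -4.27 without siQk sample 2, -15.4 without siNT sample 1 and -16.0 without siQk sample 1. The 3′ site was in Agrn, at 95.04%, 97.95% and 96.45% in siNT and 97.1%, 100% and 98.7% in siQk. Its siQk mean lay above the 98% limit, so it entered the test only through siNT. The largest 5′ site differences of Src (1.61 points) and Agrn (-0.93 points) also lay within overlapping groups.

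Junction coverage, the stand-in for gene expression, was lower for Src in the knockdown. It was 40.9, 40.7 and 38.1 CPM in siNT and 30.4, 29.7 and 24.5 CPM in siQk. All knockdown samples lay below all controls, and the mean fell to 70.6% of siNT (log2 fold change -0.50 on the log2(CPM + 0.5) scale, SE 0.11, 95% interval -0.75 to -0.25, limma adjusted p = 0.0430). Src alone of the 4 genes tested passed, against 4.21% of 10851 genes and 1.45% in the lower direction. The call was lost when siNT sample 1, 2 or 3 or siQk sample 2 or 3 was left out (adjusted p 0.165 at most) and without the filter on low coverage (0.0640). In bulk RNA, fewer cells that express a gene and less RNA per cell cannot be told apart.

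Agrn, Apbb1 and Daam1 did not pass the coverage test. Agrn stood at 517, 604 and 584 CPM in siNT and 492, 543 and 498 CPM in siQk (log2 fold change -0.15, 95% interval -0.34 to 0.04, limma adjusted p = 0.343). Apbb1 stood at 350, 281 and 305 CPM and 271, 283 and 272 CPM (log2 fold change -0.17, 95% interval -0.38 to 0.03, limma adjusted p = 0.315). In both genes the groups overlapped. Daam1 stood at 64.3, 64.6 and 69.5 CPM and 68.0, 73.6 and 71.2 CPM (log2 fold change 0.10, 95% interval -0.08 to 0.28, limma adjusted p = 0.540). The median over all genes tested was 0.022. Sums grow with the number of exon events, so they were not compared between genes.

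**Figure D4:**
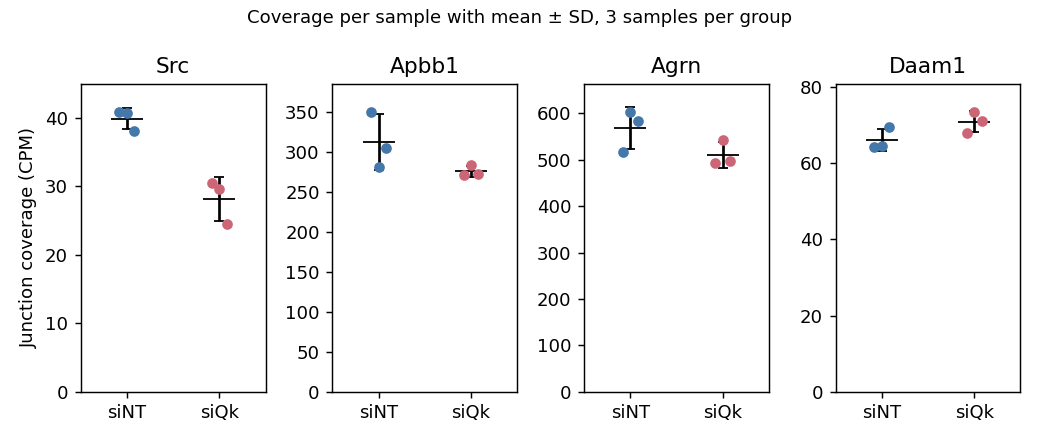
Junction coverage (y axis, CPM, reads of all exon events of a gene scaled to the sample total) of Src, Apbb1, Agrn and Daam1 in each N2A sample, with siNT in blue, siQk in red and black bars for the mean ± SD of 3 samples. Src fell from 38.1 to 40.9 CPM in siNT to 24.5 to 30.4 CPM in siQk, and each panel has its own y axis from 0.

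In the neurons, 5 of the members' microexons were major forms and 2 were almost absent. In the authors' deposited table, which holds 1 combined value per condition, untreated PSI was 99.7% for the 27 nt exon of Robo1, 97.7% for Daam1, 87.0% for the 12 nt exon of Agrn, 84.7% for Src and 57.3% for the 24 nt exon of Agrn. It was 36.8% for the 12 nt exon of Robo2 and 20.5% for the 6 nt exon of Apbb1. The other 12 nt exon of Robo2 (0.20%) and the 13 nt entry of Apbb1 (0.19%) were nearly silent. The spread between neuron samples and their depth are unknown, so neighbours in this order cannot be told apart.

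Beside the N2A controls, 4 microexons could be matched by both ends and all 4 were higher in the authors' deposited table of neurons. Src read 84.7% against a mean of 21.9% ± 3.92 (SD, n = 3) in siNT, 62.8 points higher. The 24 nt exon of Agrn read 57.3% against 1.04% ± 0.43 (56.2 points higher), the 12 nt exon 87.0% against 51.9% ± 5.62 (35.1 points higher) and Daam1 97.7% against 71.7% ± 3.22 (26 points higher). From reads as counted the siNT means were 8.13% for Src, 0.51% and 8.14% for these Agrn exons and 59.9% for Daam1. The size and order of these gaps therefore depend on the correction in the N2A values. Whether the neuron values carry a like correction was not checked. The 7.83% reached by the 24 nt Agrn exon in siQk was still far below its level in neurons. For Apbb1 the neurons gave 20.5% for a 6 nt exon and siNT gave 95.4% for a 4 nt event. These entries were not matched, so no direction is read from them. The tables were made separately and the Apbb1 entries differ in their end, so these values stand side by side without a test.

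**Figure D5:**
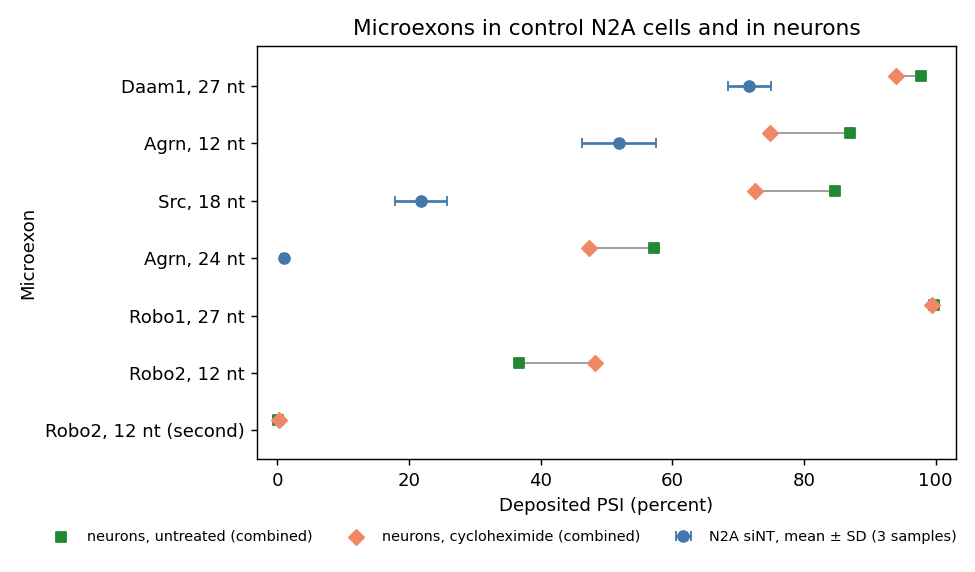
Deposited PSI (x axis, percent) of 7 microexons (y axis) in N2A siNT cells (blue, mean ± SD of 3 samples) and in neurons without drug (green squares) and with cycloheximide (orange diamonds), each a combined value of 2 samples without error. Robo1 and Robo2 have no N2A value, and the Apbb1 microexon is left out because its ends differ between the tables.

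With cycloheximide the neurons' values for Agrn, Src and Robo2 moved by about 10 to 12 points. Where change means 10 points or more with a probability from 0.9 up in the authors' deposited table, 2 of the 9 entries changed, 1 in each direction. The same rule took 10.0% of the 2121 microexons, 7.73% lower and 2.31% higher. The 12 nt exon of Agrn went from 87.0% to 74.9%, 12.1 points lower (probability 0.984). The 12 nt exon of Robo2 went from 36.8% to 48.3%, 11.5 points higher (probability 0.976).

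Values for 2 more exons in the authors' deposited table lay just outside that rule. Src went from 84.7% to 72.5%, a difference of -12.2 points with a probability of 0.873. The 24 nt exon of Agrn went from 57.3% to 47.3%, a difference of -9.97 points with a probability of 0.998. Daam1 went from 97.7% to 94.0% (probability 0.966) and Apbb1 from 20.5% to 17.96% (probability 0.923), differences of -3.70 and -2.56 points. Robo1 stood at 99.7% and 99.4%, and the other 2 entries stayed under 0.36%. In all, 7 of the 9 values were lower with the drug, with a median of -2.56 points, beside 57.6% lower and a median of -0.08 points over all entries. The 4 neuron samples entered as combined values, so no test over samples could be made.

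In the authors' deposited list of neural microexons, each of the 5 entries, from 4 of the genes, was put in a class of no change with Qk, as were 81.0% of all entries in the list. The list's combined values agree in direction with the sample means for 4 of them. For the 12 nt exon of Agrn the authors' deposited values were 51.0% in siNT and 53.4% in siQk, 2.36 points higher, whereas the means over samples gave -8.41 points. For the 24 nt exon of Agrn the authors' deposited list gives 1.14% and 7.31%, and for Apbb1 95.3% and 98.3%. It records no ACTAAY motif, the Qk recognition element, beside any of the 5. The sources used here do not give the window of that search.

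Partners of these genes were read from 6 lists. Over all 12930 cassette exons tested, 0.750% were called higher and 0.425% lower, with a median difference of 0.04 points. Over all genes tested for coverage, 2.76% were higher and 1.45% lower. For Apbb1, the list of App and its cytoplasmic adaptors had 14 cassette exons tested, of which 0 rose and 1 fell, with a median difference of -2.74 points. The exon that fell was the 168 nt exon of App itself, which encodes its Kunitz protease inhibitor domain. Its PSI was 64.0%, 64.0% and 63.5% in siNT and 44.9%, 48.0% and 49.8% in siQk, without overlap (-16.3 points, limma adjusted p = 0.00140). None of 11 genes in that list passed the coverage test.

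For Agrn, none of 3 cassette exons (median difference -3.79 points) and none of 7 genes of the list of agrin receptors and postsynaptic clustering passed. For Daam1, the formin and planar cell polarity list had 1 of 18 exons higher and 0 lower, with a median of -0.69 points. That was a 126 nt exon of Fmnl2, a formin of protrusions, at 15.8%, 14.6% and 14.9% in siNT and 28.8%, 30.7% and 29.4% in siQk (limma adjusted p = 0.00828). Of 15 genes, 1 rose in coverage: Fmnl1, a formin of blood cells, at 73.9, 74.5 and 82.9 CPM in siNT and 115, 115 and 111 CPM in siQk (log2 fold change 0.56, limma adjusted p = 0.0118). The call of Fmnl2 was lost without siNT sample 2 or 3 or siQk sample 2 or 3, and that of Fmnl1 without siNT sample 2 or siQk sample 2 or 3.

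For the Robo genes, the list of Slit ligands, Robo receptors and effectors had 0 of 27 exons higher and 1 lower (median -1.61 points), and 0 of 17 genes higher and 2 lower in coverage. Myo9b, an unconventional myosin, gave both an exon and a coverage call. Its 40 nt exon read 90.9%, 90.2% and 90.9% in siNT and 71.2%, 52.5% and 42.6% in siQk, all below the controls (limma adjusted p = 0.00822), a call lost without siNT sample 2. Its coverage was 209, 172 and 190 CPM in siNT and 123, 112 and 101 CPM in siQk (log2 fold change -0.76, limma adjusted p = 0.00972), lost without siQk sample 2 or 3. The other was Gpc1, a proteoglycan that binds Slit, at 86.5, 74.9 and 82.8 CPM in siNT and 67.1, 56.8 and 57.1 CPM in siQk (log2 fold change -0.43, limma adjusted p = 0.0499). The Gpc1 call was lost when siNT sample 1, 2 or 3 or siQk sample 2 or 3 was left out, with a pseudocount of 2 (0.0502) and without the filter on low coverage (0.0706).

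For Src, none of 26 cassette exons in the list of Src and focal adhesion kinase signalling passed (median 1.23 points). Of its 15 genes, 1 rose in coverage, the Src family kinase Lyn, at 4.17, 5.76 and 5.34 CPM in siNT and 7.64, 8.84 and 10.8 CPM in siQk (log2 fold change 0.78, limma adjusted p = 0.0435). The Lyn call was lost when siNT sample 1, 2 or 3 or siQk sample 2 or 3 was left out, without the filter on low coverage (0.0876) and with trimmed mean scaling (0.0516). The list of microexon regulators (median -0.12 points) had 1 of 43 exons higher, in the splicing factor Mbnl2 (8.21% ± 0.28 in siNT and 54.0% ± 5.78 in siQk, SD, n = 3). It had 2 lower, in Mbnl1 (79.1% ± 0.53 and 59.0% ± 4.96, lost without siNT sample 1, 2 or 3 or siQk sample 2) and in Srrm3 (66.0% ± 11.6 and 3.84% ± 3.41, lost without siNT sample 2). Of its 20 genes, 2 were lower in coverage, Qk itself and Ptbp2, the neuronal paralog of Ptbp1, at 194, 181 and 173 CPM in siNT and 133, 133 and 128 CPM in siQk (log2 fold change -0.48, limma adjusted p = 0.0154). The Ptbp2 call was lost without siNT sample 2 or siQk sample 2 or 3.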

How the data were processed

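The authors deposited, per the file headers, a percent spliced in for each event and N2A sample, each with a quality cell of another kind (text) that holds junction reads as counted and inclusion and exclusion reads after a correction. PSI values of the neural list and of the neuron table were deposited as a fraction, replicates combined, and the authors deposited the probability of a difference there as a score from 0 to 1. The neuron table names the control before the drug, so its first PSI column was read as untreated. The sources used here do not name the software, and the build is mm10, per the submitters' processing notes.

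A test needed 10 or more reads in all 6 samples and a mean PSI between 2 and 98. The log2((inclusion + 0.5)/(exclusion + 0.5)) was compared by limma 3.58.1 (R 4.3.3; robust, two-sided, with a trend on sampling variance), and Benjamini-Hochberg adjustment ran over each event class. For coverage, exon-event reads were summed per gene and scaled to CPM, and limma-trend was run on log2(CPM + 0.5) for genes averaging 20 reads or more. A read can serve several events. Squared differences between samples of a group averaged 1.51 to 4.08 times their sampling variance, over tested cassette exons of intermediate mean PSI. All samples were kept as separate.

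Named were all members, per gene and class the event with the largest difference, called partner events, and the nearest 3 microexons by distance of PSI, apart from items that are not reported here. Members and lists were chosen with earlier results of these data known. Replicates are biological per the labels. Tables and figures used Python 3.11.15, pandas 2.3.3 and matplotlib 3.10.9.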

Additional observations from a re-analysis of the deposited data

How the results depend on the processing

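The count of called microexons of the 6 genes was 0 under every alternative run, including the replicate block, as were those of longer exons, introns and alternative sites. Microexons past the adjusted p alone numbered 2, and 1 to 2 when a sample was left out, 1 without the filter on mean PSI and 1 with limma on PSI, Apbb1 being the one lost. They numbered 2 with the replicate block and with junction reads as counted, an alternative chosen after seeing the data. The difference ranged, with a sample left out, from -18.6 to 6.78 points for the 12 nt exon of Agrn, from -6.46 to 3.52 for Daam1, from -1.53 to 5.51 for Src, from -3.38 to 3.90 for the 77 nt exon of Src, and from -2.02 to 4.95 and -1.86 to 0.21 for the 5′ sites of Src and Agrn. Coverage calls among the 6 genes numbered 1, 0 to 1 with a sample left out, and 0 without the low filter. Partner exons called numbered 6, 2 to 6 with a sample left out, 7 with the replicate block, and 9 each with weights from the sampling variance, with limma on PSI and with junction reads as counted. Partner coverage calls numbered 6, 1 to 11 with a sample left out, and 13 with the replicate block. In neurons 2 became 0 at 15 points. Of the single values, 306 kept direction and side of the threshold, 45 lost it and 9 turned. The cause of these shifts was not tested.

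Deviations of same-numbered samples correlated at 0.139, 0.0193 and 0.116, and 5 of 6 samples correlated best with their own number. The main fit did not take the numbers as pairs, and whether they mark a shared batch was not tested. With the replicate block, coverage calls over all 10851 genes numbered 1205, against 457 in the main fit. Daam1 and Src rest on 31 to 152 reads per sample, neuron depth is unknown, and Robo1 and Robo2 were not measurable in N2A.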

Other observations

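Among the partner lists, 6 of 32 entries (18.8%) met the rule for a change in neurons in the authors' deposited table, which took 10.0% of all 2121 entries, 7.73% lower and 2.31% higher. In the Src list both were exons of Ptk2, the focal adhesion kinase: in the authors' deposited table its 21 nt exon went from 84.0% to 57.5% and its 18 nt exon from 82.9% to 70.9%. In the Slit and Robo list, the authors' deposited table has a 24 nt exon of Slit2, a ligand of Robo, at 41.8% and 22.2%, and a 12 nt exon of Enah, an actin regulator, at 28.4% and 4.04%. In the formin list the authors' deposited table has a 27 nt exon of Diaph1 at 98.1% and 79.6%. In the regulator list, the authors' deposited table has a 16 nt exon of Srrm4, the activator of neural microexons, at 7.26% untreated and 40.1% with cycloheximide. Of the 6, 5 were lower and 1 higher with the drug, and no test over samples was possible.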
